A study of Homo sapiens with 9 samples.

Results

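The unfolded protein response of the endoplasmic reticulum (ER) was described through 10 genes, HSPA5, HSP90B1, SDF2L1, CALR, DNAJB9, PDIA4, HERPUD1, XBP1, ERN1 and ATF6, chosen by symbol from the 60605 genes of the table. RNA-seq was performed on TE13 cells, an established human esophageal squamous cell carcinoma (ESCC) line, in 3 replicates of each of 3 conditions. The cells were transfected with a control siRNA or with either of a pair of siRNAs named PARylator siRNA.1 and PARylator siRNA.2. PARylator is the name given to the long non-coding RNA LINC00885, and both siRNAs were designed against it. The time between transfection and RNA extraction is not given in the sources used here, and all values come from 1 cell line in culture.

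Secreted and membrane proteins fold in the ER with the help of chaperones and of enzymes that form disulfide bonds. When unfolded proteins build up, the sensors IRE1 (encoded by ERN1), PERK (encoded by EIF2AK3) and ATF6 are activated in the ER membrane. ATF6 is cut by Golgi proteases into a transcription factor, IRE1 splices XBP1 mRNA into the form that encodes an active transcription factor, and PERK phosphorylates eIF2alpha, which slows translation and favours translation of ATF4. ATF6 and spliced XBP1 raise the transcription of chaperones, folding enzymes and parts of the ER-associated degradation (ERAD) machinery. Splicing of XBP1, cutting of ATF6 and phosphorylation of PERK or eIF2alpha do not appear in counts per gene, so the values below are levels of mRNA only.

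The promoters of these genes are shown because ATF6 and XBP1 are known to act through the ER stress response element (ERSE), which reads CCAAT, then 9 bases of any kind, then CCACG, and through ERSE-II, which reads ATTGG, then 1 base of any kind, then CCACG. RefSeq promoter windows on GRCh38.p14, from 250 bases before to 50 bases after the annotated start, were searched on both strands. Among 35116 windows, 0.0769% held an ERSE and 0.0541% an ERSE-II. All 10 genes had a window, and 6 of them held one of these elements. Each sequence below runs 5′ to 3′ on the strand of the gene over the 250 bases before its RefSeq start, with the matched letters in capitals.

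HSPA5, chr9:125241344-125241593, minus strand, with an ERSE at bases -66 to -48 from the start.
HSPA5: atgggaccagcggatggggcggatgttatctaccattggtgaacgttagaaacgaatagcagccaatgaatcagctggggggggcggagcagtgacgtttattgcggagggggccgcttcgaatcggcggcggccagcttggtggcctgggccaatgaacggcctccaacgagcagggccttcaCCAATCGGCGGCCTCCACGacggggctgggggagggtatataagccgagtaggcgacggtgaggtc
HSP90B1, chr12:103930160-103930409, plus strand, with an ERSE at bases -194 to -176 and another, on the opposite strand, at bases -89 to -71.
HSP90B1: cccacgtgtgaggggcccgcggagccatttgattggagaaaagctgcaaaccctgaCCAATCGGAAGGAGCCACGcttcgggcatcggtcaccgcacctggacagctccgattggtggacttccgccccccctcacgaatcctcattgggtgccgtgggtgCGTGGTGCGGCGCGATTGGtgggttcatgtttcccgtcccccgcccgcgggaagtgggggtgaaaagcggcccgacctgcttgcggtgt
XBP1, chr22:28800570-28800819, minus strand, with an ERSE at bases -52 to -34.
XBP1: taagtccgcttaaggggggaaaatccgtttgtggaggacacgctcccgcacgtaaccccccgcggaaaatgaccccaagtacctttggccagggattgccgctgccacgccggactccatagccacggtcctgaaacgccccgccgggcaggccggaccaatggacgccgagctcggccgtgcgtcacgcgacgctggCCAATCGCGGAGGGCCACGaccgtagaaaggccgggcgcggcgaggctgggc
CALR, chr19:12938359-12938608, plus strand, with an ERSE on the opposite strand at bases -225 to -207.
CALR: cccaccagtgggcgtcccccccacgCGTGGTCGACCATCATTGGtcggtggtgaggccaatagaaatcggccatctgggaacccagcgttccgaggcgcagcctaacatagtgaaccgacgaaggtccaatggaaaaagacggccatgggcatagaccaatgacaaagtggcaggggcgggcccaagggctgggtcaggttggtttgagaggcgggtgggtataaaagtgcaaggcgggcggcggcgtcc
SDF2L1, chr22:21642052-21642301, plus strand, with an ERSE-II on the opposite strand at bases -188 to -178.
SDF2L1: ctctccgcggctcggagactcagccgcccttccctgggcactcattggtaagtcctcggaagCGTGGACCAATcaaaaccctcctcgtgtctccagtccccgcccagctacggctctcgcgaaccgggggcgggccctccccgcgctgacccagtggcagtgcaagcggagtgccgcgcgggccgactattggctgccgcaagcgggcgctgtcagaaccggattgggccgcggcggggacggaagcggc
HERPUD1, chr16:56931892-56932141, plus strand, with an ERSE-II at bases -117 to -107. The capitals further upstream, at bases -176 to -169, are the amino acid response element (AARE) described next.
HERPUD1: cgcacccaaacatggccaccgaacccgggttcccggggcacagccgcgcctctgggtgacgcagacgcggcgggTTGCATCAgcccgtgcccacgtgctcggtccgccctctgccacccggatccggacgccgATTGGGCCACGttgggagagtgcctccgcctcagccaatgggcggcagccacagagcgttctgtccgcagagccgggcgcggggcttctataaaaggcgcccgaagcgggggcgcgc

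A pair of other elements was searched in the same windows. The UPR element (UPRE) TGACGTGG, read by spliced XBP1 and ATF6, stood in 0.729% of all windows and in none of the 10 genes. The AARE TTGCATCA, read by ATF4 and its partners, stood in 0.866% of windows and, of the 10 genes, in HERPUD1 only. A match is a run of letters and not a measured binding site, and the absence of these exact letters says nothing of variant forms of an element.

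Levels are given as FPKM, the count of a gene divided by its exonic length and by the total count of its library. Differences between conditions are log2 fold changes from edgeR's quasi-likelihood test on the counts, with the standard error (SE), and p-values were adjusted by the Benjamini-Hochberg method over all 21395 genes tested, those averaging 0.1 FPKM or more across the libraries. A gene was called at an adjusted p under 0.05. All 10 genes passed this filter, and the lowest count of any of them in any library was 157. Libraries held 15337917 to 17899074 counts (control siRNA), 15374616 to 17762752 (siRNA.1) and 19213164 to 22559998 (siRNA.2). The targeted LINC00885 had 6, 7 and 12 counts with control siRNA, 4, 5 and 2 with siRNA.1 and 2, 0 and 4 with siRNA.2, and was not called with either (adjusted p = 0.376 and 0.0659 from edgeR), so the counts check the label only weakly. Markers of squamous epithelium were present, 8 of 8 averaging 1 FPKM or more in every condition, and their summed FPKM was 851 to 867 (control siRNA), 612 to 642 (siRNA.1) and 606 to 630.3 (siRNA.2). Mitochondrial genes took 7.46% to 7.66%, 4.99% to 5.06% and 5.54% to 5.56% of the counts in the same order. The part of either shift in the results below was not tested. Markers of other cell types were low beside these. Leukocyte markers (6) summed to 0.46 to 1.20, 3.65 to 4.37 and 3.49 to 4.41 FPKM, with MS4A1 listed at 0 everywhere. Of them, 0 averaged 1 FPKM or more with control siRNA and 1 with each PARylator siRNA. Fibroblast markers (6) summed to 1.46 to 2.49 FPKM, with 1 at that level in every condition. Endothelial markers (3) summed to 0.42 to 1.54 FPKM, with 0 at that level. In bulk RNA, a change in the share of cells that express a gene and a change in RNA per cell cannot be told apart.

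With siRNA.1, 4 of the 10 genes were called, XBP1 and ATF6 higher and HSP90B1 and PDIA4 lower than with control siRNA, against 30.3% of all genes tested (15% higher and 15.2% lower). With siRNA.2, 8 of 10 were called, HSPA5, HSP90B1, SDF2L1, XBP1 and ATF6 higher and DNAJB9, HERPUD1 and CALR lower, against 30.9% of all genes (15.8% higher and 15.1% lower). Between the siRNAs, 7 of 10 differed, HSPA5, HSP90B1, SDF2L1 and PDIA4 higher with siRNA.2 and DNAJB9, HERPUD1 and CALR lower, against 12.2% of all genes (6.1% higher and 6.06% lower). These genes are mostly abundant, and abundant genes were called more often: among the 11156 genes averaging 100 counts or more, 49.2% were called with siRNA.1, 50.3% with siRNA.2 and 21.4% between the siRNAs. The count with siRNA.1 was near that background, and those with siRNA.2 and between the siRNAs were above it. Several of the 10 genes, such as HSPA5, HSP90B1 and CALR, had counts far above that limit, so the background is not matched to them. The 10 genes were also chosen with earlier results of these data known, so the counts called are descriptive and not independent support. The comparisons share libraries and are not independent of each other.

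In FPKM, the siRNA.1 libraries lay wholly above or below the control libraries for 5 of the 10 genes, against 37.7% of all genes. With siRNA.2 this held for 9 of 10, all but ERN1, against 39.6% of all genes. Between the siRNAs it held for 8 of 10, all but XBP1 and ERN1, against 24.4% of all genes. As medians over the 10 genes, log2 fold changes were 0.00 (siRNA.1), 0.20 (siRNA.2) and -0.03 (siRNA.2 minus siRNA.1), beside 0.00, 0.00 and 0.00 over all genes tested. Summed over the 10 genes, FPKM was 862 to 881 (control siRNA), 840.0 to 884 (siRNA.1) and 950.4 to 967 (siRNA.2). The siRNA.2 libraries were thus the highest in the sum, while the control and siRNA.1 libraries overlapped. As a share of all FPKM of a library, the 10 genes took 0.288% to 0.296%, 0.303% to 0.313% and 0.335% to 0.338% in the same order, so that on this scale the siRNA.1 libraries also lay above the control libraries.

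**Figure D1:**
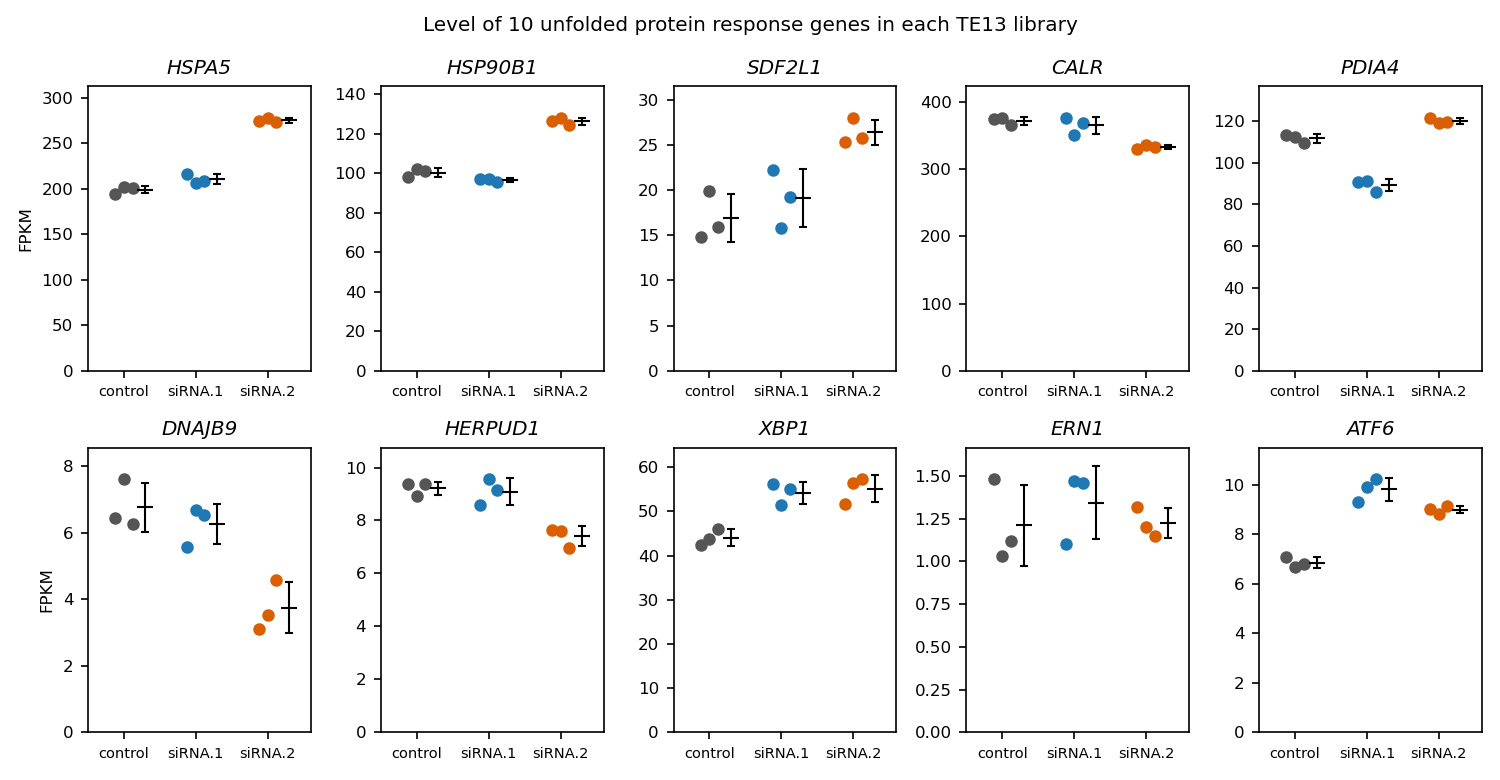
FPKM of each of the 10 genes in the 9 libraries, with a point for each library and, beside them, the mean ± SD of each condition (n = 3). Each panel has its own axis from 0. The siRNA.2 points of HSPA5, from 273 to 278 FPKM, stand above all others, those of DNAJB9, from 3.12 to 4.59 FPKM, stand below all others, and the conditions overlap in ERN1.

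The abundance of the 10 genes spanned a wide range, and FPKM, being per length, sets them side by side. In the control libraries CALR was the most abundant (rank 51 of the 60605 genes by mean FPKM), followed by HSPA5 (rank 126), PDIA4 (277), HSP90B1 (321), XBP1 (900), SDF2L1 (2794), HERPUD1 (4824), ATF6 (5957), DNAJB9 (6004) and ERN1 (11918). Neighbours in this order did not overlap in FPKM except ATF6 and DNAJB9. With siRNA.1 and with siRNA.2, HSP90B1 stood above PDIA4, and ATF6 stood above HERPUD1. ATF6 and HERPUD1 overlapped in FPKM with siRNA.1. No neighbours overlapped with siRNA.2, where CALR and HSPA5 were closer to each other than in the other conditions, at means of 333 and 275 FPKM.

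HSPA5 (ENSG00000044574, GRCh38 chromosome 9, 125234853 to 125241382, minus strand, 8 exons) encodes BiP, the Hsp70 chaperone of the ER lumen that also holds the sensors inactive. It stood at 195, 202 and 201 FPKM in the control libraries, 217, 206 and 209 FPKM with siRNA.1, and 274, 278 and 273 FPKM with siRNA.2. The siRNA.2 libraries were the highest of the 9, the control libraries the lowest, and no pair of conditions overlapped. Mean FPKM was 199 ± 3.68 (SD, n = 3), 211 ± 5.54 and 275 ± 2.71. HSPA5 rose 1.37-fold with siRNA.2 (log2 fold change 0.46, SE 0.03, adjusted p = 7.11e-43 from edgeR) and was higher under siRNA.2 than under siRNA.1 by 0.40 on the log2 scale (SE 0.03, adjusted p = 1.16e-32). With siRNA.1 the log2 fold change was 0.05 (95% confidence interval -0.01 to 0.12, adjusted p = 0.234), and the gene passed with scaling by library totals alone (0.08, adjusted p = 0.0188), where the other settings gave adjusted p up to 0.288.

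HSP90B1 (ENSG00000166598, chromosome 12, 103930107 to 103953931, plus strand, 18 exons) encodes GRP94, the Hsp90 chaperone of the ER. It measured 98.0, 102 and 101 FPKM in the control libraries, 97.3, 97.2 and 95.6 FPKM with siRNA.1, and 127, 128 and 124 FPKM with siRNA.2. The siRNA.2 libraries lay above all others, and the siRNA.1 libraries lay just below the control libraries. HSP90B1 rose 1.25-fold with siRNA.2 (log2 fold change 0.32, SE 0.03, adjusted p = 4.64e-21), and the difference between siRNA.2 and siRNA.1 was 0.40 (SE 0.03, adjusted p = 4.94e-32). With siRNA.1 it fell by 0.08 on the log2 scale (SE 0.03, adjusted p = 0.0396). This small fall was lost without TMM scaling, without the filter on low values, with limma and with the replicate number as a block (adjusted p = 0.0626), with a range of 0.0116 to 0.160 over these and the other settings. It was also lost without control replicate 2 (adjusted p = 0.151), control replicate 3 (0.120), siRNA.1 replicate 2 (0.0634) or siRNA.1 replicate 3 (0.145), with a range of 0.0190 to 0.151 over the 9 libraries left out. UQCC6 on the opposite strand shares 6.15% of the exonic bases of HSP90B1, and the sources used here do not state whether counting used strand.

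SDF2L1 (ENSG00000128228, chromosome 22, 21642302 to 21644299, plus strand, 3 exons) encodes an ER protein that works with BiP and its DnaJ partners. It stood at 14.8, 19.9 and 15.9 FPKM in the control libraries, 22.3, 15.85 and 19.25 FPKM with siRNA.1, and 25.4, 28.01 and 25.7 FPKM with siRNA.2. The siRNA.2 libraries lay above the others, and control and siRNA.1 libraries overlapped widely. It rose 1.55-fold with siRNA.2, the largest increase among the 10 genes (log2 fold change 0.64, SE 0.10, adjusted p = 4.16e-09). The difference between the siRNAs was 0.47 (SE 0.10, adjusted p = 5.37e-05), which limma did not call (adjusted p = 0.0729 to 0.0771). With siRNA.1 the log2 fold change was 0.16 (95% confidence interval -0.04 to 0.37, adjusted p = 0.269), and without siRNA.1 replicate 2 it was 0.28 (adjusted p = 0.0479, within a range of 0.0479 to 0.886 over the libraries left out).

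CALR (ENSG00000179218, chromosome 19, 12938578 to 12944489, plus strand, 9 exons) encodes calreticulin, the calcium-binding lectin chaperone that helps glycoproteins fold. It measured 374, 376 and 365 FPKM in the control libraries, 376, 350.3 and 368 FPKM with siRNA.1, and 329.7, 336 and 333 FPKM with siRNA.2. The siRNA.2 libraries lay below all others. CALR fell by 0.17 on the log2 scale with siRNA.2 (SE 0.03, adjusted p = 5.92e-06), to 0.888 of the control level, while HSPA5 and HSP90B1, which also carry an ERSE, rose. It was lower under siRNA.2 than under siRNA.1 (log2 difference -0.12, SE 0.03, adjusted p = 0.00915), a call lost without siRNA.1 replicate 1 (adjusted p = 0.0739) or replicate 3 (0.0679), in a range of 0.000550 to 0.0739 over the libraries left out. With siRNA.1 the log2 fold change was -0.05 (95% confidence interval -0.12 to 0.01, adjusted p = 0.250). A long non-coding RNA on the opposite strand shares 9.64% of the exonic bases of CALR.

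DNAJB9 (ENSG00000128590, chromosome 7, 108569867 to 108574850, plus strand, 3 exons) encodes ERdj4, a DnaJ co-chaperone of BiP known as a target of spliced XBP1. It stood at 6.45, 7.61 and 6.25 FPKM in the control libraries, 5.57, 6.69 and 6.54 FPKM with siRNA.1, and 3.12, 3.53 and 4.59 FPKM with siRNA.2. All siRNA.2 libraries lay below all others, and their spread was wide for their level. It fell by 0.85 on the log2 scale with siRNA.2 (SE 0.12, adjusted p = 7.74e-11), to 0.553 of the control level, the largest change among the 10 genes in any comparison. It was also lower under siRNA.2 than under siRNA.1 (log2 difference -0.72, SE 0.12, adjusted p = 4.21e-07). With siRNA.1 the log2 fold change was -0.14 (95% confidence interval -0.37 to 0.10, adjusted p = 0.433).

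PDIA4 (ENSG00000155660, chromosome 7, 149003062 to 149028662, minus strand, 10 exons) encodes ERp72, a protein disulfide isomerase. It measured 114, 112 and 109 FPKM in the control libraries, 90.6, 91.3 and 86.1 FPKM with siRNA.1, and 122, 119 and 119.8 FPKM with siRNA.2. The siRNA.1 libraries lay below the control libraries and the siRNA.2 libraries above them. PDIA4 fell by 0.35 on the log2 scale with siRNA.1 (SE 0.04, adjusted p = 2.18e-15), to 0.785 of the control level. It was higher under siRNA.2 than under siRNA.1 by 0.44 (SE 0.04, adjusted p = 7.92e-24). Against control siRNA, siRNA.2 gave a log2 fold change of 0.09 (95% confidence interval 0.01 to 0.18, adjusted p = 0.0705), which passed with library totals alone (adjusted p = 0.0228), upper-quartile factors (0.0449), DESeq2 (0.0422) and limma (0.0273 to 0.0287), in a range of 0.0228 to 0.106 over the settings, and without siRNA.1 replicate 1 or 2 (0.0455 and 0.0481), in a range of 0.0455 to 0.231 over the libraries left out.

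HERPUD1 (ENSG00000051108, chromosome 16, 56932142 to 56944864, plus strand, 8 exons) encodes HERP, a membrane protein of the ERAD complex. It stood at 9.36, 8.91 and 9.36 FPKM in the control libraries, 8.57, 9.56 and 9.14 FPKM with siRNA.1, and 7.63, 7.62 and 6.97 FPKM with siRNA.2. The siRNA.2 libraries lay below all others. HERPUD1 fell by 0.33 on the log2 scale with siRNA.2 (SE 0.08, adjusted p = 0.000103), while SDF2L1, the other gene with an ERSE-II, rose. It was lower under siRNA.2 than under siRNA.1 (log2 difference -0.28, SE 0.08, adjusted p = 0.00336), a call lost without siRNA.2 replicate 3 (-0.24, adjusted p = 0.0550), in a range of 0.00220 to 0.0550 over the libraries left out. With siRNA.1 the log2 fold change was -0.05 (95% confidence interval -0.20 to 0.10, adjusted p = 0.709).

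XBP1 (ENSG00000100219, chromosome 22, 28794555 to 28800597, minus strand, 6 exons) encodes the transcription factor whose mRNA is spliced by IRE1. Total XBP1 mRNA stood at 42.4, 43.8 and 46.05 FPKM in the control libraries, 56.3, 51.4 and 55.0 FPKM with siRNA.1, and 51.6, 56.4 and 57.3 FPKM with siRNA.2. Both siRNAs lay above the control libraries and overlapped each other. XBP1 rose 1.21-fold with siRNA.1 (log2 fold change 0.27, SE 0.05, adjusted p = 7.03e-07) and 1.24-fold with siRNA.2 (0.31, SE 0.05, adjusted p = 5.40e-09). The difference between the siRNAs was 0.04 (95% confidence interval -0.06 to 0.14, adjusted p = 0.719).

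ERN1 (ENSG00000178607, chromosome 17, 64039080 to 64130819, minus strand, 22 exons) encodes the kinase and endoribonuclease IRE1. It was the least abundant of the 10 genes, at 1.48, 1.03 and 1.12 FPKM in the control libraries, 1.10, 1.47 and 1.46 FPKM with siRNA.1, and 1.32, 1.20 and 1.15 FPKM with siRNA.2. The conditions overlapped in every comparison. The log2 fold change was 0.12 with siRNA.1 (95% confidence interval -0.07 to 0.32, adjusted p = 0.383) and 0.00 with siRNA.2 (-0.19 to 0.19, adjusted p = 0.997). Control replicate 1 was the highest control library, and without it the difference with siRNA.1 was 0.29 (adjusted p = 0.0331, in a range of 0.0331 to 0.935 over the libraries left out). A pair of long non-coding RNAs on the opposite strand share 2.26% and 2.36% of its exonic bases.

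ATF6 (ENSG00000118217, chromosome 1, 161766298 to 161977574, plus strand, 16 exons) encodes the sensor that becomes a transcription factor after cleavage. It measured 7.09, 6.67 and 6.79 FPKM in the control libraries, 9.30, 9.91 and 10.2 FPKM with siRNA.1, and 9.03, 8.82 and 9.13 FPKM with siRNA.2. Both siRNAs lay above the control libraries, siRNA.1 the highest. ATF6 rose 1.40-fold with siRNA.1 (log2 fold change 0.49, SE 0.05, adjusted p = 2.47e-18), the largest change of the 10 genes with that siRNA, and 1.30-fold with siRNA.2 (0.38, SE 0.05, adjusted p = 1.59e-11). The siRNAs differed by -0.11 (95% confidence interval -0.21 to -0.01, adjusted p = 0.191), which did not pass after adjustment.

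**Figure D2:**
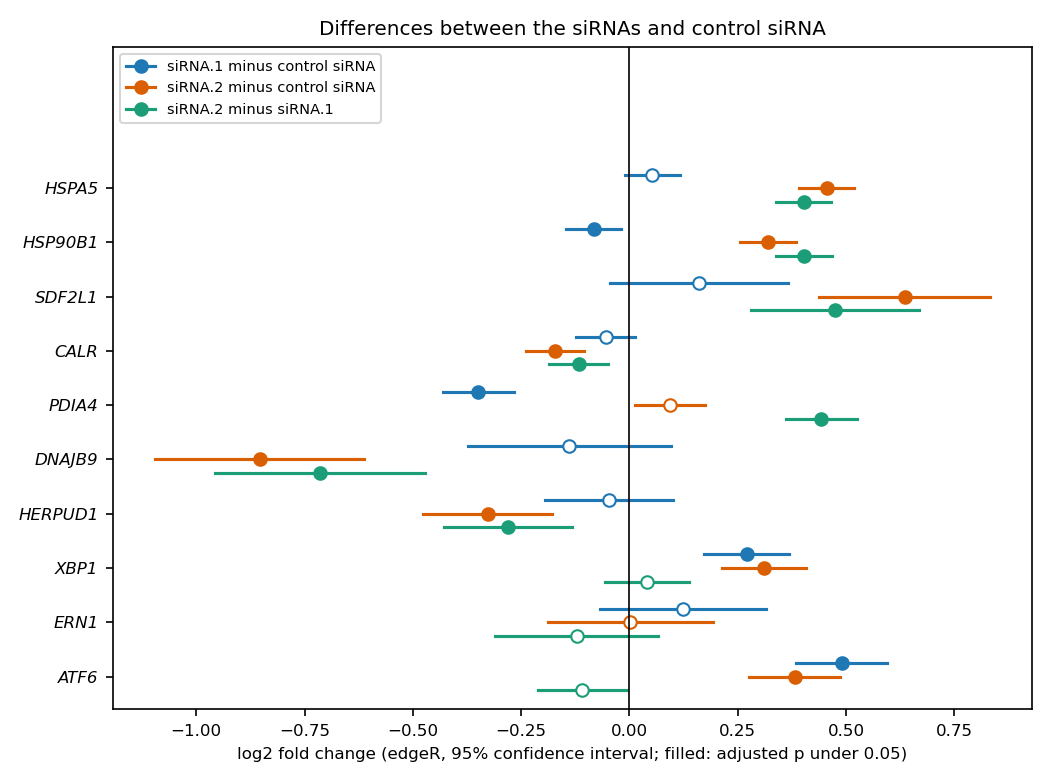
Log2 fold changes of the 10 genes from edgeR with 95% confidence intervals, in blue for siRNA.1 minus control siRNA, in orange for siRNA.2 minus control siRNA and in green for siRNA.2 minus siRNA.1. Filled points have an adjusted p under 0.05. XBP1 and ATF6 are filled and to the right of 0 for both siRNAs, while HSPA5 and SDF2L1 are filled for siRNA.2 and open for siRNA.1.

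The genes beyond these 10 were taken from 12 lists of the response and of the secretory pathway, written from general knowledge, with 143 genes in all, of which 140 were tested. ERN2, DERL3 and VLDLR did not pass the filter on low values. The lists share genes with each other and with the 10 genes above, and were chosen with earlier results of these data known. Over all lists, 41 genes were called higher and 41 lower with siRNA.1, 59 higher and 31 lower with siRNA.2, and 44 higher and 15 lower under siRNA.2 than under siRNA.1. These are 58.6%, 64.3% and 42.1% of the 140 genes, beside 30.3%, 30.9% and 12.2% of all genes tested and 49.2%, 50.3% and 21.4% of those averaging 100 counts or more. The medians over the 140 genes were -0.02, 0.10 and 0.07 on the log2 scale. The share called in each list is given below in the same order, to be read beside these shares of genes at large. Genes named from here on are all sensors and transcription factors, up to 3 genes per list and direction that were called alike with each siRNA and changed most on average, and others that are named as chosen after their values were seen.

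**Figure D3:**
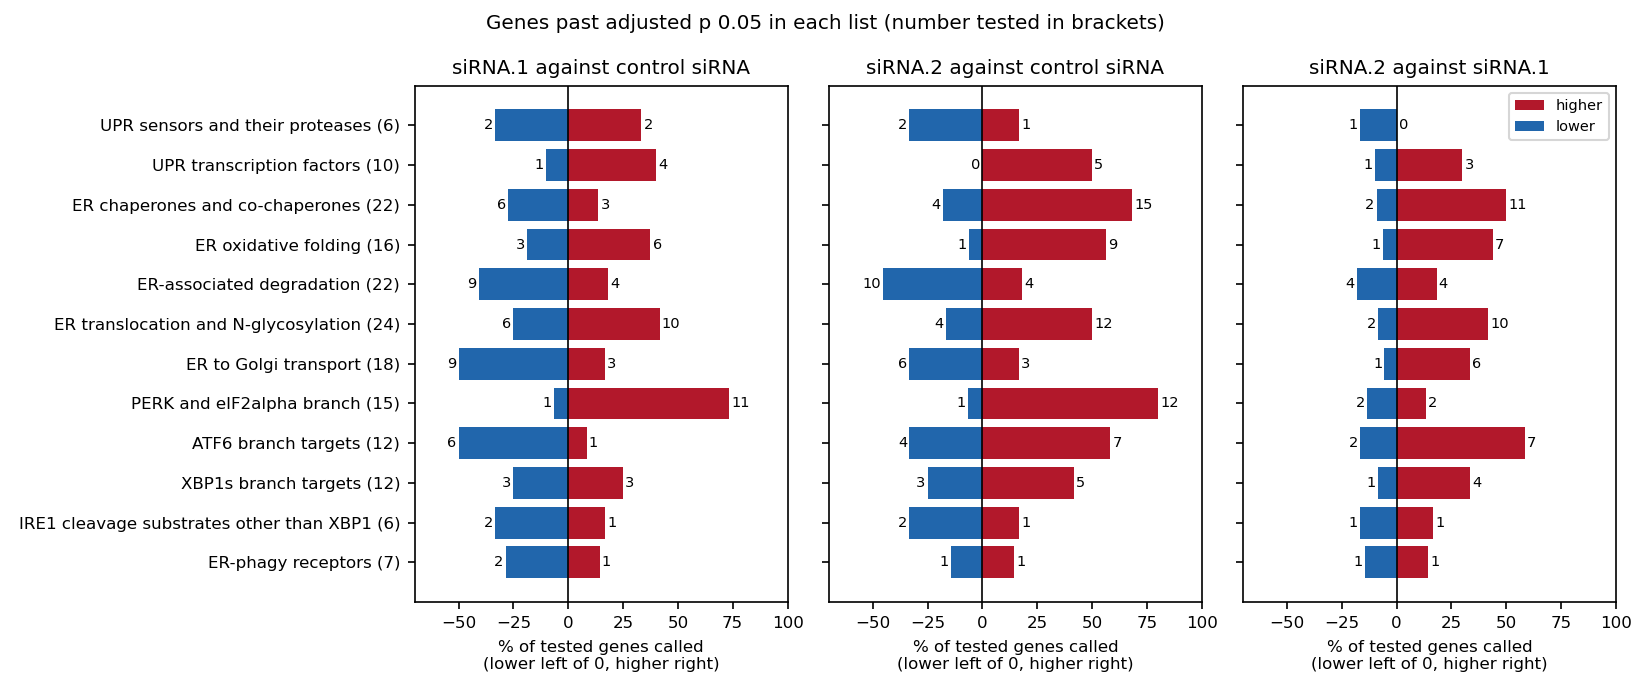
Share of the tested genes of each list called higher (right of 0, red) or lower (left of 0, blue) in the 3 comparisons, with the number of genes at each bar and the number tested in brackets. With siRNA.1, 6 of 22 chaperones are lower and 3 higher. With siRNA.2, 15 are higher and 4 lower, and in the PERK list the bars to the right hold 11 and 12 of 15 genes.

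Among 22 ER chaperones and co-chaperones, 3 were called higher and 6 lower with siRNA.1 (median log2 fold change -0.07), 15 higher and 4 lower with siRNA.2 (0.19), and 11 higher and 2 lower under siRNA.2 than under siRNA.1 (0.16). These are 40.9%, 86.4% and 59.1% of the list. DNAJC1, a DnaJ protein of the ER membrane, rose with both siRNAs (0.49 and 0.44, adjusted p = 6.20e-06 and 4.33e-05), as did SIL1, the nucleotide exchange factor of BiP (0.38 and 0.32, adjusted p = 0.000777 and 0.00593) and FKBP10, a collagen chaperone (0.26 and 0.20, adjusted p = 3.73e-08 and 3.11e-05). DNAJC3, a DnaJ co-chaperone also known as P58IPK, fell with both (-0.35 and -0.29, adjusted p = 4.29e-07 and 2.18e-05). Chosen after their values were seen, 4 further chaperones shared the pattern of HSP90B1, lower than control siRNA with siRNA.1 and higher with siRNA.2. As given above, the fall of HSP90B1 with siRNA.1 was small and was lost in several settings. The same check of the 4 further chaperones is not given here. The secreted factor MANF had log2 fold changes of -0.17 and 0.30 (adjusted p = 0.0293 and 1.57e-05). CRELD2, an ER-resident protein with an ERSE in its promoter window, had -0.25 and 0.41 (adjusted p = 0.0116 and 3.38e-06). The prolyl isomerase PPIB had -0.15 and 0.24 (adjusted p = 0.00334 and 1.67e-07), and the collagen chaperone SERPINH1 had -0.11 and 0.12 (adjusted p = 0.0134 and 0.00656). Also chosen after their values were seen, HYOU1, an Hsp70-like exchange factor, and CANX, the membrane-bound relative of calreticulin, were called higher with siRNA.2 (0.16 and 0.17, adjusted p = 0.000297 and 3.89e-06) and not with siRNA.1 (-0.07 and 0.05, adjusted p = 0.180 and 0.337). CANX and CALR thus moved in opposite directions with siRNA.2.

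Of 16 genes of oxidative folding, PDIA4 among them, 6 were called higher and 3 lower with siRNA.1 (median 0.09), 9 higher and 1 lower with siRNA.2 (0.24), and 7 higher and 1 lower between the siRNAs (0.12). These are 56.25%, 62.5% and 50% of the list. PDIA5 rose with both siRNAs (0.38 and 0.47, adjusted p = 5.80e-05 and 2.15e-07), as did the ER peroxiredoxin PRDX4 (0.42 and 0.43, adjusted p = 1.79e-07 and 6.83e-08) and the sulfhydryl oxidase QSOX1 (0.54 and 0.18, adjusted p = 9.10e-29 and 0.000893). ERO1B, an oxidase of protein disulfide isomerases, fell with both (-0.50 and -0.52, adjusted p = 0.0416 and 0.0287). Chosen after their values were seen, the abundant isomerase P4HB rose with both siRNAs (0.10 and 0.30, adjusted p = 0.0272 and 3.25e-14). PDIA3, the partner of calreticulin and calnexin, and PDIA6 rose with siRNA.2 (0.36 and 0.34, adjusted p = 2.73e-24 and 2.26e-14). With siRNA.1 their values were 0.08 and 0.09 (adjusted p = 0.0766 and 0.109), whereas PDIA4 was called lower.

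**Figure D4:**
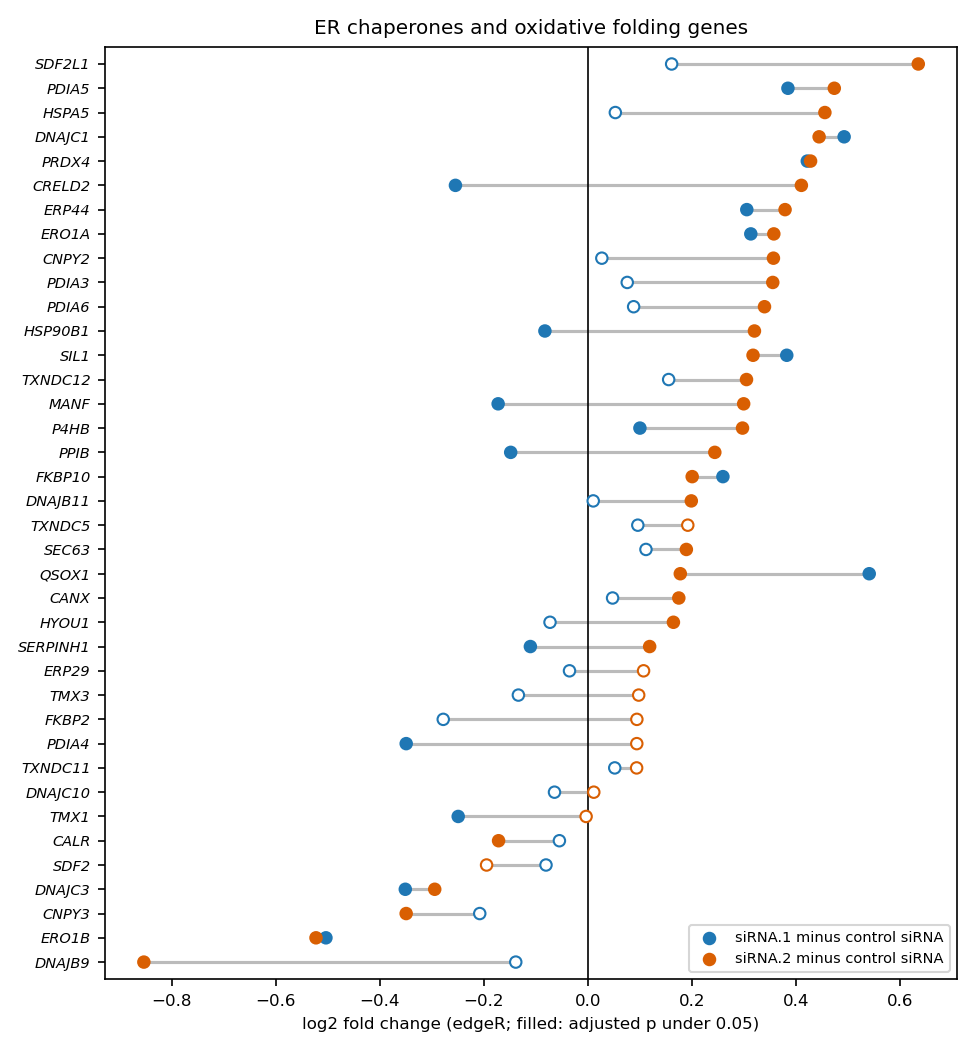
Log2 fold changes of the tested ER chaperone and oxidative folding genes with siRNA.1 (blue) and siRNA.2 (orange) against control siRNA, ordered by siRNA.2, with filled points at an adjusted p under 0.05 and a grey line between the values of a gene. HSPA5, SDF2L1, PDIA3 and PDIA6 have the orange point filled and the blue point open, and DNAJB9 is the lowest with siRNA.2.

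Genes named as targets of ATF6, 7 of 12 of which are among the 10 genes above, were called 1 higher and 6 lower with siRNA.1 (median -0.08), 7 higher and 4 lower with siRNA.2 (0.23), and 7 higher and 2 lower between the siRNAs (0.32). These are 58.3%, 91.7% and 75% of the list. SEL1L, the scaffold of the ERAD ligase complex, fell with both siRNAs (-0.39 and -0.45, adjusted p = 2.86e-14 and 5.34e-19). Of the 12 targets named for spliced XBP1, 50%, 66.7% and 41.7% were called. They gave 3 higher and 3 lower with siRNA.1 (-0.05), 5 higher and 3 lower with siRNA.2 (0.09), and 4 higher and 1 lower between the siRNAs (0.08). Of these, SEC24D, a COPII coat protein, fell with both (-0.65 and -0.33, adjusted p = 5.53e-20 and 4.14e-06), and SYVN1, the ERAD ligase HRD1, rose (0.22 and 0.28, adjusted p = 0.0347 and 0.00494). Other mRNAs known to be cut by IRE1 (6 genes) gave 1 higher and 2 lower with each siRNA and 1 higher and 1 lower between them. These are 50%, 50% and 33.3% of the list, beside 49.2%, 50.3% and 21.4% of genes averaging 100 counts or more. SPARC rose (2.18 and 2.09, adjusted p = 3.45e-05 and 6.24e-05) from 7, 3 and 8 counts in the control libraries, SCARA3 fell (-0.48 and -0.63, adjusted p = 1.57e-06 and 5.24e-11), and HGSNAT fell (-0.36 and -0.71, adjusted p = 0.000278 and 2.11e-14).

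The sensors and their proteases did not move together. Of 6 tested, 2 were called higher and 2 lower with siRNA.1, 1 higher and 2 lower with siRNA.2, and 1 lower between the siRNAs. These are 66.7%, 50% and 16.7% of those tested. EIF2AK3, which encodes PERK, had log2 fold changes of 0.10 and -0.16 (adjusted p = 0.502 and 0.229). ATF6B, a relative of ATF6, fell with both siRNAs (-0.22 and -0.23, adjusted p = 0.00528 and 0.00240) while ATF6 rose. The proteases that cut ATF6 also differed, MBTPS1 falling with both (-0.20 and -0.23, adjusted p = 0.00387 and 0.000381) and MBTPS2 rising with siRNA.1 (0.29, adjusted p = 0.000658) with 0.07 for siRNA.2 (adjusted p = 0.570).

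The 15 tested genes of the PERK and eIF2alpha branch were mostly higher with both siRNAs. With siRNA.1, 11 were called higher and 1 lower (median 0.31), with siRNA.2 12 higher and 1 lower (0.36), and between the siRNAs 2 higher and 2 lower (-0.04). These are 80%, 86.7% and 26.7% of those tested. ATF4, the transcription factor of the branch, stood at 154 ± 6.13 FPKM (SD, n = 3) in the control libraries and rose with siRNA.1 (187 ± 3.85 FPKM) and siRNA.2 (199.6 ± 3.54 FPKM) (log2 fold changes 0.25 and 0.36, adjusted p = 5.44e-09 and 3.88e-18). DDIT3, which encodes the stress factor CHOP, stood at 4.84, 6.33 and 5.26 FPKM in the control libraries, 12.8, 13.1 and 13.2 FPKM with siRNA.1 and 11.7, 12.03 and 12.1 FPKM with siRNA.2. It thus rose by 1.22 and 1.11 on the log2 scale (adjusted p = 1.29e-18 and 9.54e-16), with no overlap between the control and siRNA libraries. ATF3, another stress-induced factor, rose by 1.31 and 1.00 (adjusted p = 1.06e-52 and 3.72e-31). NUPR1 rose by 1.84 and 1.64 (adjusted p = 3.13e-08 and 9.36e-07) from 11, 16 and 21 counts in the control libraries. PPP1R15B, the constitutive regulatory subunit of the eIF2alpha phosphatase, fell (-0.35 and -0.41, adjusted p = 3.72e-12 and 8.01e-17). Chosen after their values were seen, PPP1R15A, its stress-induced counterpart GADD34, rose (0.79 and 0.67, adjusted p = 8.64e-51 and 3.22e-36), as did the glutathione-degrading enzyme CHAC1 (1.00 and 1.02, adjusted p = 7.92e-32 and 1.18e-33) and the pseudokinase TRIB3 (0.85 and 0.58, adjusted p = 3.01e-43 and 4.79e-20). Several of these genes also answer to eIF2alpha kinases other than PERK, and the counts do not show which kinase was active.

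Among the 10 transcription factors, XBP1 included, 4 were called higher and 1 lower with siRNA.1, 5 higher with siRNA.2, and 3 higher and 1 lower between the siRNAs. These are 50%, 50% and 40% of the list, beside 49.2%, 50.3% and 21.4% of genes averaging 100 counts or more. CREB3L2, an ATF6-like factor, fell with siRNA.1 (-0.57, adjusted p = 7.14e-11) and had 0.14 with siRNA.2 (adjusted p = 0.168). NFYB, a subunit of the complex that binds the CCAAT part of the ERSE, rose with siRNA.2 (0.22, adjusted p = 0.00234), with 0.04 for siRNA.1 (adjusted p = 0.742). The other subunits, NFYA (0.09 and 0.06) and NFYC (-0.11 and -0.18), and the factors CREB3 (0.14 and 0.11) and CREB3L1 (-0.17 and 0.49, at most 19 counts) were not called with either siRNA (adjusted p = 0.0608 to 0.890).

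**Figure D5:**
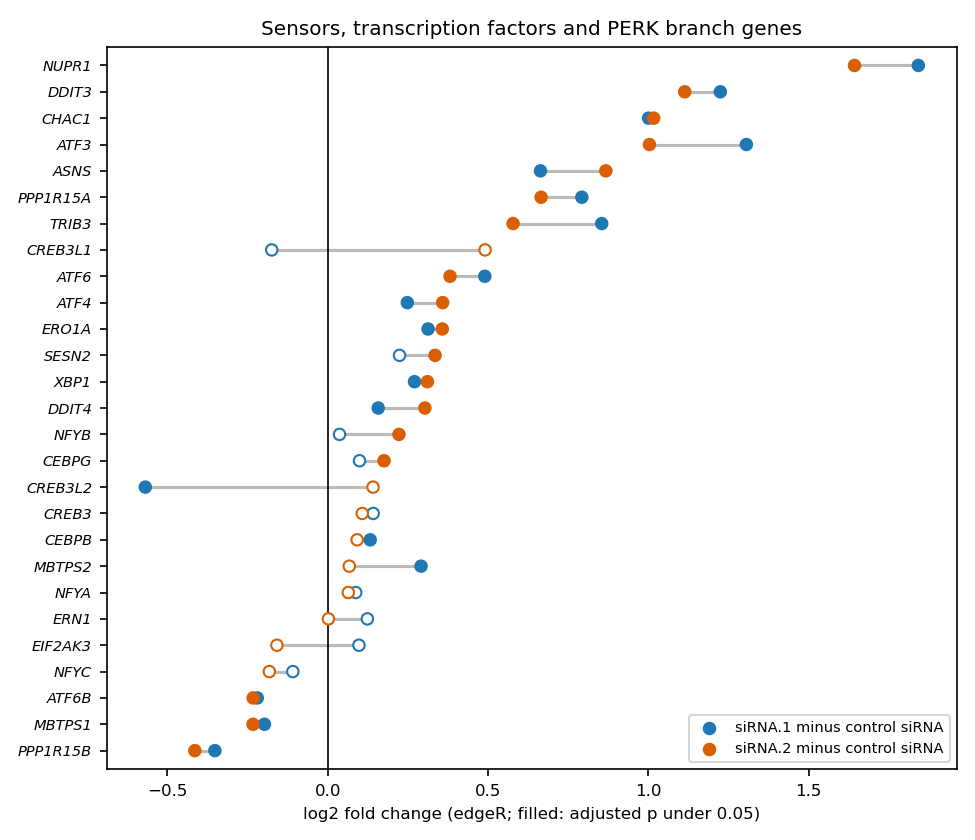
Log2 fold changes of the tested sensors, transcription factors and genes of the PERK branch with siRNA.1 (blue) and siRNA.2 (orange) against control siRNA, drawn as for the folding genes. NUPR1, DDIT3, CHAC1 and ATF3 are at the top with both points filled at 1.00 or more, ERN1 and EIF2AK3 are open near 0, and PPP1R15B is lowest with siRNA.2.

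ERAD genes, HERPUD1 among them, leaned the other way from the chaperones with siRNA.2. Of 22 tested, 4 were called higher and 9 lower with siRNA.1 (median -0.05), 4 higher and 10 lower with siRNA.2 (-0.13), and 4 higher and 4 lower between the siRNAs (0.03). These are 59.1%, 63.6% and 36.4% of those tested. EDEM2, which trims mannose from misfolded glycoproteins, fell by 0.71 and 0.46 on the log2 scale (adjusted p = 1.11e-10 and 3.06e-05), and UBXN4, which recruits VCP to the ER, had -0.36 and -0.22 (adjusted p = 4.64e-13 and 3.65e-05). AUP1 (0.56 and 0.52, adjusted p = 8.46e-24 and 1.01e-20) and SELENOS (0.33 and 0.39, adjusted p = 3.52e-05 and 4.92e-07) rose.

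In the 24 genes of translocation and N-glycosylation, 10 were called higher and 6 lower with siRNA.1 (median 0.01), 12 higher and 4 lower with siRNA.2 (0.13), and 10 higher and 2 lower between the siRNAs (0.11). These are 66.7%, 66.7% and 50% of the list. GANAB and MOGS, the glucosidases that trim new N-glycans, rose with both siRNAs (GANAB 0.54 and 0.73, adjusted p = 1.50e-33 and 1.27e-61, and MOGS 0.15 and 0.46, adjusted p = 0.0366 and 4.63e-14), as did SRPRB of the signal recognition particle receptor (0.32 and 0.49, adjusted p = 2.71e-06 and 2.56e-14). UGGT1, which re-glucosylates unfolded glycoproteins for calreticulin and calnexin, fell (-0.53 and -0.29, adjusted p = 1.98e-26 and 8.28e-09), and so did SPCS3 of the signal peptidase (-0.54 and -0.29, adjusted p = 1.60e-22 and 3.31e-07). ER to Golgi transport (18 genes) gave 3 higher and 9 lower with siRNA.1 (-0.17), 3 higher and 6 lower with siRNA.2 (-0.03), and 6 higher and 1 lower between the siRNAs (0.12). These are 66.7%, 50% and 38.9% of the list. The cargo receptors TMED10 (-0.27 and -0.37, adjusted p = 3.99e-09 and 1.76e-17) and LMAN1 (-0.23 and -0.22, adjusted p = 2.31e-06 and 7.39e-06) fell, while SEC13 (0.17 and 0.31, adjusted p = 0.0284 and 3.80e-06) and KDELR2, a receptor that returns BiP and its kin to the ER (0.12 and 0.13, adjusted p = 0.0103 and 0.00464), rose. Of 7 ER-phagy receptors, 1 was called higher and 2 lower with siRNA.1, 1 higher and 1 lower with siRNA.2, and 1 higher and 1 lower between the siRNAs. These are 42.9%, 28.6% and 28.6% of the list, beside 49.2%, 50.3% and 21.4% of genes averaging 100 counts or more. RETREG1, also known as FAM134B, rose (1.11 and 0.56, adjusted p = 3.64e-09 and 0.00748) and CALCOCO1 fell (-0.41 and -0.60, adjusted p = 0.000428 and 5.69e-08).

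A wider view used the annotation in the deposited table, chosen after the values above were seen. Of 38 tested genes annotated to the ER unfolded protein response, 13 were called higher and 7 lower with siRNA.1, 13 higher and 7 lower with siRNA.2, and 3 higher and 6 lower between the siRNAs. Their shares called, 52.6%, 52.6% and 23.7%, were near those of genes averaging 100 counts or more (49.2%, 50.3% and 21.4%). For the 43 tested genes annotated to the response to unfolded protein, the counts were 10 higher and 17 lower, 13 higher and 15 lower, and 11 higher and 5 lower, or 62.8%, 65.1% and 37.2%.

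Genes that share an element with the 10 genes were also compared. Of the 17 tested genes with an ERSE in a promoter window, HSPA5, HSP90B1, XBP1 and CALR among them, 3 were called higher and 5 lower with siRNA.1, 8 higher and 4 lower with siRNA.2, and 5 higher and 2 lower between the siRNAs. The 14 with an ERSE-II gave 3 higher and 1 lower, 4 higher and 4 lower, and 2 higher and 2 lower. The 136 tested genes with a UPRE gave 16 higher and 38 lower, 18 higher and 36 lower, and 19 higher and 11 lower, and the 88 with an AARE gave 25 higher and 13 lower, 29 higher and 16 lower, and 6 higher and 11 lower. Each element was thus found in genes called in either direction. Genes at large were also called in either direction, in near equal shares. Over all genes tested, siRNA.1 gave 15% called higher against 15.2% lower, and siRNA.2 gave 15.8% against 15.1%. For the direct contrast of the siRNAs these shares were 6.1% and 6.06%. Abundant genes, at a mean of 100 counts or more, were called in 49.2%, 50.3% and 21.4% of cases. Whether genes with an element differ from either background was not tested, so these counts are no result about the elements.

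The pattern of HSPA5 over the 9 libraries was set beside those of 11833 named genes averaging 1 FPKM or more, by Pearson's correlation of log2(FPKM + 0.1). The points share 3 conditions and their scaling, so the values are descriptive. The non-members most like it were CDH2 (0.993), which encodes N-cadherin, PDIA3 (0.986), SUPT16H (0.983), a subunit of the FACT histone chaperone, RRN3 (0.980), an RNA polymerase I factor, and PDIA6 (0.979). CDH2 stood at 6.31 ± 0.402, 6.86 ± 0.232 and 10.2 ± 0.268 FPKM (SD, n = 3) with control siRNA, siRNA.1 and siRNA.2. Of the 10 genes, HSP90B1 (0.954) and SDF2L1 (0.903) were closest to HSPA5. XBP1 (0.654), PDIA4 (0.555), ATF6 (0.408) and ERN1 (-0.155) were further from it, and CALR (-0.899), DNAJB9 (-0.925) and HERPUD1 (-0.944) ran opposite to it.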

How the data were processed

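Poly(A)+ RNA of 9 TE13 libraries was sequenced on an Illumina instrument. Per the study's methods, the authors used STAR for alignment and featureCounts for gene counts, and the submitters' processing notes name GRCh38. Tool versions, annotation release and strandedness are not given in the sources used here. For each gene the authors deposited its raw count and its FPKM, which is the count scaled to exonic length and library total. The deposited coordinates of the 10 genes equal those of GENCODE release 44.

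Counts were tested with edgeR 4.0.16 (quasi-likelihood, TMM) in R 4.3.3, with all 3 conditions fitted together and no covariate, over genes averaging 0.1 FPKM or more, with a Benjamini-Hochberg threshold of 0.05. Each SE was taken as the size of the log2 fold change over the root of F. limma 3.58.1 on log2(FPKM + 0.1, 1 or 0.01), DESeq2 1.42.0, other scalings and filters, a 2-condition fit, a replicate block and each library left out served as alternatives. The tests were checked on simulated counts for siRNA.2 against control siRNA, with 1 spread for all genes, slightly below the common value estimated from the data. The changed genes were drawn only from those above a minimum of expected counts, so the recovery does not cover the lowest genes tested. Of 50 genes changed 1.25-fold, edgeR recovered 33, DESeq2 28 and limma 9. Of 50 changed 2-fold, they recovered 47, 45 and 42. Of the unchanged genes, they called 12, 6 and 21. Libraries of 1 condition differed beyond sampling noise (chi-square per degree of freedom 2.76 to 4.62) and each was counted as 1 sample. P-values set a mean difference against the spread between these libraries, estimated with information from all genes. They cover these libraries of 1 cell line only.

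The members and lists were chosen with earlier results of these data known, and the lists were written from recall. Besides the members, the sensors and the transcription factors, the text names in each list up to 3 genes per direction with the largest mean log2 fold change among those called with both siRNAs in 1 direction, and the 5 genes most correlated with HSPA5. A gene chosen by this rule is not reported here. Promoter sequences are from RefSeq (GRCh38.p14), matched by symbol for 10 of 10 genes.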

Additional observations from a re-analysis of the deposited data

Results flagged for a closer look

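Genes are listed here because the siRNAs differed from each other directly, by edgeR's test of siRNA.2 against siRNA.1 over all 21395 genes. Values are log2 differences, siRNA.2 minus siRNA.1, and no explanation was tested.

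Among the 10 genes, HSPA5 (0.40, adjusted p = 1.16e-32), HSP90B1 (0.40, 4.94e-32), SDF2L1 (0.47, 5.37e-05) and PDIA4 (0.44, 7.92e-24) were higher with siRNA.2, while DNAJB9 (-0.72, 4.21e-07), HERPUD1 (-0.28, 0.00336) and CALR (-0.12, 0.00915) were lower.

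Of the other chaperones named above, CRELD2 differed by 0.67, MANF by 0.47, PPIB by 0.39, HYOU1 by 0.24, SERPINH1 by 0.23 and CANX by 0.13. In oxidative folding, PDIA3 differed by 0.28, PDIA6 by 0.25, P4HB by 0.20 and QSOX1 by -0.36. The glycosylation and translocation genes MOGS (0.31), SPCS3 (0.25), UGGT1 (0.24), GANAB (0.19) and SRPRB (0.17) were higher with siRNA.2, as were SEC24D (0.32) and UBXN4 (0.15). Of the factors and sensors, CREB3L2 differed by 0.71, NFYB by 0.19, ATF4 by 0.11, MBTPS2 by -0.22 and ATF3 by -0.30. TRIB3 (-0.28), HGSNAT (-0.35) and RETREG1 (-0.55) were lower with siRNA.2. The genes chosen for their likeness to HSPA5, CDH2 (0.59), RRN3 (0.38) and SUPT16H (0.19), were higher. The highest adjusted p among these other genes was that of ATF4 (0.0436).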

How the results depend on the processing

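Of the 600 values of the 10 genes under the alternatives (30 values, 20 alternatives each), 573 kept their side of the threshold, 16 lost the call and 11 gained it. No called value changed sign, and 8 uncalled values did, 7 of ERN1 with siRNA.2 and 1 of XBP1 between the siRNAs. For the other list genes and the genes most like HSPA5, 7586 of 8032 kept their side of the threshold, 173 of them uncalled values with another sign, 351 lost the call and 95 gained it. These checks are not given gene by gene here. This includes calls near the threshold, such as those of ERO1B, SYVN1 and MOGS with siRNA.1. Between the siRNAs, 2603 genes were called, and limma called 1437 (pseudocount 0.1), 1414 (1) and 1449 (0.01). Of the 140 list genes, 59 were called between the siRNAs, and limma called 37, 38 and 38. The cause was not tested.

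With each library left out in turn, the genes called ranged from 5615 to 6502 with siRNA.1, 5692 to 6731 with siRNA.2 and 1906 to 2696 between the siRNAs. Those of the 10 genes ranged from 3 to 5, 8 to 9 and 6 to 7, and list genes from 69 to 84, 82 to 92 and 44 to 59. Deviations from the condition mean correlated at -0.187 to 0.101 for libraries with the same replicate number, and at -0.078 to 0.172 for others. The deviations of the 3 libraries of a condition are tied together by their mean. These ranges therefore cannot decide whether the replicate numbers pair the libraries. With the replicate number as a block, 6215, 6358 and 2342 genes were called, 3, 8 and 7 of the 10 genes, and 79, 87 and 52 list genes. The block ended the call of HSP90B1 with siRNA.1 (adjusted p = 0.0626) and changed no other call among the 10 genes.

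Depth limits the low genes most: DNAJB9, ERN1 and SDF2L1 had the fewest counts and the largest SEs, and LINC00885 had at most 12 counts in a library. Among the 10 genes, an uncalled difference is given with its interval and is not evidence of no change.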
